A study of Mus musculus with 28 samples.

Results

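Igf1 and Pdgfa encode secreted growth factors that act on the cells that rebuild myelin. Their repressive chromatin was followed here in microglia sorted from the mouse brain. The deposited count table assigns each region of histone H3 lysine 27 trimethylation (H3K27me3) to the gene with the nearest transcription start site (TSS). Every region assigned to Igf1 or Pdgfa was taken, which gave 9 of 26326 regions, 1 for Igf1 and 8 for Pdgfa. The 2 genes were chosen by measured values: the H3K27me3 level of both in CD229+CD11c+ microglia against basal microglia, and that of Igf1 also in CD229+CD11c- microglia against basal. Those 2 contrasts are therefore given as a description, with no p-value.

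All cells came from adult male wild-type C57BL/6 mice. Basal microglia were sorted as CD44 low, CD45 low and CD11b low cells from animals on a regular diet. The other 3 groups came from animals fed 0.2% cuprizone, a copper chelator that is toxic to oligodendrocytes and causes demyelination, for 4 weeks until they were killed. They were separated by the surface proteins CD229 (Ly9) and CD11c (Itgax) into CD229-CD11c-, CD229+CD11c- and CD229+CD11c+ microglia. Counts from 3 H3K27me3 libraries were used per group (basal replicates 3, 4 and 5; replicates 1, 2 and 3 of each cuprizone group), all with a stated read length of 150. Each sort pooled the brains of 2 to 6 mice. Since the labels do not say that the replicates came from separate pools, p-values measure the spread between these libraries. Diet and sort gate differ together between basal and each cuprizone group, so their shares in a difference cannot be told apart.

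H3K27me3 is deposited by Polycomb repressive complex 2 and is found over silent or weakly transcribed genes, often those of other lineages and of development. Igf1 is the ligand of the receptor Igf1r, through which it supports the survival and maturation of oligodendrocytes; activated microglia are a known source of it in demyelinated tissue. Pdgfa forms the PDGF-AA dimer, a mitogen for oligodendrocyte progenitors, which carry its receptor Pdgfra. Only the histone mark was measured here, not the RNA or protein of either gene.

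The RefSeq promoter windows of both genes lay outside the marked regions, and 1 is shown for each gene, so that the unmarked sequence before its start can be seen. RefSeq (GRCm38.p6) lists 1 start for Igf1 and 2 for Pdgfa in the promoter table used, and the 250 bases before the Igf1 start and before the more upstream Pdgfa start are printed 5′ to 3′, with CpG dinucleotides in capitals.
Igf1, chr10:87860861-87861110, plus strand: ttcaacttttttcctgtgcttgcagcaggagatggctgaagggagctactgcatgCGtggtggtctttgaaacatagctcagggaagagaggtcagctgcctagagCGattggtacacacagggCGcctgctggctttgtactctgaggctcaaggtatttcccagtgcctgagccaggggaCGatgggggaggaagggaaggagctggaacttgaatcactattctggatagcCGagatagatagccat
Pdgfa, chr5:138994945-138995194, minus strand: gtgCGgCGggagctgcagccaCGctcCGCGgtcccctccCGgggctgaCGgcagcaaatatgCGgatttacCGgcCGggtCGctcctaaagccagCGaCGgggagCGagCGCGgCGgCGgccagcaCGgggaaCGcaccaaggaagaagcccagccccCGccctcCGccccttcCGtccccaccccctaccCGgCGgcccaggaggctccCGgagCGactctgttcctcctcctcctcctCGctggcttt
The Igf1 window held 5 CpGs and 52.8% G or C, and 55.58% of 32851 RefSeq promoter windows of this length held at least as many CpGs. The Pdgfa window held 28 CpGs and 72.4% G or C, a CpG count reached by 7.607% of windows. The printed Igf1 start lay 3125 bp from the edge of the marked region, downstream of the start that the deposited table uses. The printed Pdgfa start lay 1162 bp from the edge of its nearest region, and the other Pdgfa start 499 bp. Of all windows, extended by 50 bases past the start, 24.07% overlapped a marked region. Of 4 motifs searched on both strands of the 250 bases, none of which contains another, the GC box GGGCGG was found 2 times in the Pdgfa window and in 32.74% of all windows, and the AP-1 motif TGANTCA was found 1 time in the Igf1 window and in 6.749% of all windows. Neither window held TATAAA (12.37% of all windows) or the PU.1 motif GAGGAAGT (2.441%).

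The single Igf1 region covered chr10:87854668-87857986 (mm10), 3.318 kb of intergenic sequence with its centre 1938 bp upstream of the nearest TSS. Its near edge lay 279 bp before the annotated start of Igf1 (chr10:87858265-87937047), and no marked region overlapped the gene. Of the 8 Pdgfa regions, the nearest to a TSS covered chr5:138989465-138993782, within Pdgfa (chr5:138976014-139000792, minus strand), with its centre 2658 bp downstream. Its annotation is intron 2 of 5 of the non-coding transcript NR_156469, and its near edge lay 499 bp from that TSS. It is called the intronic Pdgfa region below after this annotation, and whether it also covers exons was not examined. Beyond the 3′ end of the gene lay 3 intergenic regions, at chr5:138962128-138969974, chr5:138917494-138960084 and chr5:138906293-138913693, centred 28.23, 55.49 and 84.29 kb downstream of the TSS. The second of these, 42.59 kb long, was longer than all but 2.781% of regions. Upstream lay an intergenic region at chr5:139001022-139008457, centred 9.795 kb before the TSS. Its near edge lay just beyond the annotated 5′ end of Pdgfa at chr5:139000792. Distances of the downstream regions, the intronic one included, were taken from the start of NR_156469, and those of the upstream regions from the start of NM_008808. Both starts lie inside the annotated gene, so the intronic region is nearest by these starts only. The last 3 regions, at chr5:139034389-139036344, chr5:139039479-139041363 and chr5:139047013-139060046, lay 40.42, 45.48 and 58.59 kb upstream in introns 8, 7 and 5 of the neighbouring gene Prkar1b, which encodes a regulatory subunit of protein kinase A. They count as Pdgfa regions by nearest start only. The annotation places the region 45.48 kb upstream in a ZP3AR satellite repeat, and whether its tags match other copies of the repeat was not tested.

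In basal microglia the intronic Pdgfa region was the most enriched of the 9. In the authors' deposited table, made from basal replicates 1 and 2, which have no column in the count table, its log2 enrichment over input was 2.32, a value exceeded by 5.151% of regions. The Igf1 region had 1.55 in that table, near the median of all regions of 1.49. The other Pdgfa regions ran from 1.15 to 1.91 in the same table.

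Across the 12 libraries, 7740002 to 11362168 tags fell in the regions, and log2 levels of any 2 libraries correlated with r of 0.9575 to 0.987 across regions, so no library was counted as a duplicate. Levels are given in CPM, the tag count scaled to a common total of tags in regions after trimmed-mean (TMM) scaling. No spike-in is recorded, so each level is relative to the other regions, and fewer cells with the mark cannot be told apart from less mark per cell. Of 10 microglial marker genes, 9 (among them P2ry12, Tmem119, Cx3cr1 and Csf1r) had no marked region, and Sall1 had 3. The title of 2 libraries in each group carried the tag PE150 and that of 1 did not, so this tag was balanced over the groups.

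The Igf1 region had a similar mean level in basal and CD229-CD11c- microglia, although the CD229-CD11c- libraries differed widely, and a lower mean in both CD229+ groups. Its levels were 8.30, 11.6 and 9.49 CPM in basal replicates 3, 4 and 5, from 83 to 126 tags. The 3 CD229-CD11c- libraries had 7.09, 6.94 and 13.5 CPM. Replicate 3 of that group was the highest of all 12 libraries and the other 2 lay below all basal libraries. Levels in CD229+CD11c- microglia were 4.34, 4.09 and 4.49 CPM. Those of the CD229+CD11c+ libraries were 3.95, 3.16 and 4.24 CPM, from 28 to 48 tags. All 6 CD229+ libraries lay below all 6 others, while the 2 CD229+ groups overlapped each other. Igf1 was chosen on its levels in these CD229+ libraries. How many of all regions separate in such a way is not given, here or below, so separations of groups are a description. From basal to CD229+CD11c+ the group means were 9.80 ± 1.67, 9.19 ± 3.76, 4.31 ± 0.202 and 3.79 ± 0.561 CPM (SD, n = 3).

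The mean level of the intronic Pdgfa region was lower at each step from basal through CD229-CD11c- and CD229+CD11c- to CD229+CD11c+ microglia. The basal libraries had 16.1, 12.6 and 15.7 CPM. The CD229-CD11c- libraries had 11.7, 11.4 and 11.6 CPM, the closest agreement of the 4 groups. CD229+CD11c- microglia had 7.81, 9.23 and 11.2 CPM, and CD229+CD11c+ microglia 7.39, 4.18 and 5.57 CPM, from 37 to 73 tags. The ranges of neighbouring groups in this order did not overlap, although the gap between the highest CD229+CD11c- library and the lowest CD229-CD11c- library was small. Pdgfa was chosen on its CD229+CD11c+ and basal levels, so this order is a description too. The group means were 14.8 ± 1.92, 11.5 ± 0.165, 9.42 ± 1.71 and 5.71 ± 1.61 CPM (SD, n = 3).

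**Figure D1:**
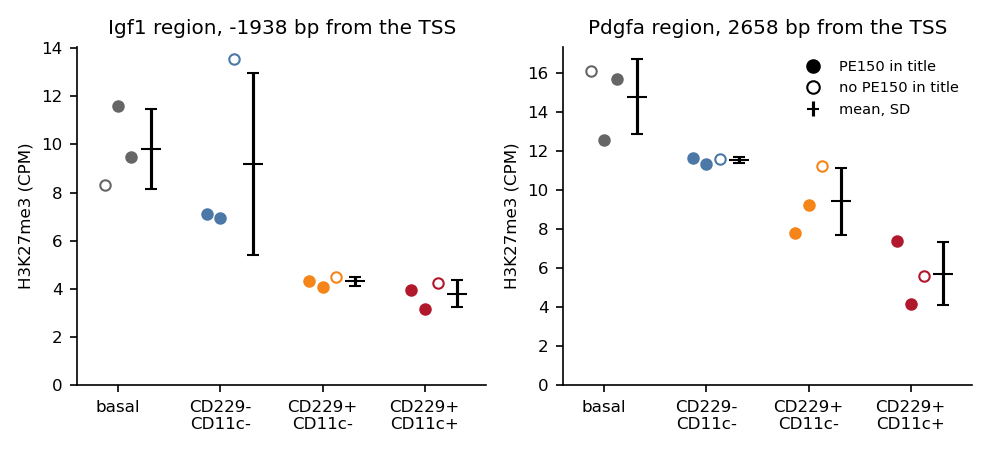
H3K27me3 level in CPM (vertical axis, from 0) of the Igf1 region and of the intronic Pdgfa region in each of the 12 libraries, by group (horizontal axis); filled points have PE150 in the library title, open points do not, and the bars are the mean and SD of 3 libraries. The Igf1 region sits between 3.16 and 4.49 CPM in the CD229+ libraries and at 6.94 CPM or above in all others, and the intronic Pdgfa region is lower group by group.

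Against basal, as a description of the contrasts on which the genes were chosen, the Igf1 region had a log2 fold of -1.18 ± 0.25 (SE) for the CD229+CD11c- libraries and -1.36 ± 0.25 for the CD229+CD11c+ libraries. The intronic Pdgfa region had -0.66 ± 0.18 and -1.36 ± 0.19. The authors' deposited table gives -1.18 and -1.37 for Igf1 and -0.65 and -1.37 for the intronic Pdgfa region in the same contrasts. In CD229+CD11c- against basal the Igf1 region and 2 Pdgfa regions lay on the lower side of an adjusted p of 0.05, and 1 Pdgfa region on the higher side, where 3.47% of all regions were called lower and 9.52% higher. In CD229+CD11c+ against basal the Igf1 region and 1 Pdgfa region were on the lower side and none was higher, with 1.47% of all regions called lower and 4.33% higher. Total-count scaling turned both backgrounds, to 3789 regions lower and 1578 higher in place of 913 and 2506, and to 796 and 687 in place of 386 and 1139. With loess offsets on the mean level the first was 1120 lower and 1732 higher. These counts carry no support, since the genes were chosen on these values.

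Cuprizone microglia that lacked both surface proteins passed the test against basal at none of the 9 regions. The log2 fold of CD229-CD11c- against basal was -0.08 ± 0.22 for Igf1 (adjusted p = 0.987, edgeR quasi-likelihood test with Benjamini-Hochberg adjustment over 26326 regions). It was -0.36 ± 0.18 for the intronic Pdgfa region (adjusted p = 0.983), which in CPM was lower in 3 of 3 libraries than in every basal library. Across the 26326 regions edgeR called 0.0% higher and 0.0% lower in this comparison, while 1103 had an unadjusted p below 0.05, and by DESeq2 the count was also 0. It was 33 with the PE150 tag as a covariate, 916 among the tagged libraries alone and 30 without CD229-CD11c- replicate 3, none of them 1 of the 9. A missed threshold does not show equal levels, and the sign of the Igf1 estimate turned with the libraries used. The Igf1 log2 difference of CD229-CD11c- from basal was -0.57 among the libraries with the PE150 tag and 0.69 between the 2 without it.

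Among cuprizone microglia, the Igf1 region fell in both CD229+ groups and the intronic Pdgfa region in the CD229+CD11c+ group. These comparisons leave out the basal libraries, but share their CD229+ libraries with the contrasts on which the genes were chosen. The Igf1 region fell by 1.10 on the log2 scale (SE 0.25, 2.15-fold) in CD229+CD11c- against CD229-CD11c- (adjusted p = 0.00573, edgeR) and by 1.28 (SE 0.25, 2.43-fold) in CD229+CD11c+ against CD229-CD11c- (adjusted p = 0.0144, edgeR). In these comparisons 12 and 14 of the 26326 regions had a lower fold. Igf1 was chosen on its levels in these CD229+ libraries, so its ranks and adjusted p carry no independent support. Between the 2 CD229+ groups its log2 fold was -0.18 ± 0.27 (adjusted p = 0.851, edgeR).

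The intronic Pdgfa region fell by 1.01 on the log2 scale (SE 0.20, 2.01-fold) in CD229+CD11c+ against CD229-CD11c- (adjusted p = 0.0137, edgeR), where 30 regions had a lower fold. Pdgfa was chosen on levels in the same CD229+CD11c+ libraries, so this rank and adjusted p carry no independent support. In CD229+CD11c- against CD229-CD11c- the log2 fold of the intronic region was -0.30 ± 0.19 (adjusted p = 0.397), and in CD229+CD11c+ against CD229+CD11c- it was -0.71 ± 0.20 (adjusted p = 0.0954, both edgeR). The test of the last difference did not pass, so a further loss with CD11c was not shown in this fit. It passed with the PE150 tag as a covariate (adjusted p = 0.00778) and with the replicate number as a block (adjusted p = 0.00845, both edgeR).

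Single libraries decided several of these calls. Without CD229-CD11c- replicate 3, the library highest for Igf1, the Igf1 log2 fold against that group was -0.70 for CD229+CD11c- (adjusted p = 0.0566) and -0.88 for CD229+CD11c+ (adjusted p = 0.0720), both by edgeR. The Igf1 call in CD229+CD11c+ against CD229-CD11c- was also lost without CD229+CD11c+ replicate 1 (adjusted p = 0.0864) or replicate 2 (adjusted p = 0.115). The Pdgfa call was lost without CD229-CD11c- replicate 2 (adjusted p = 0.0505) or CD229+CD11c+ replicate 2 (adjusted p = 0.115) or 3 (adjusted p = 0.0535). With only the 2 groups compared in the model, and so fewer libraries behind the spread, both calls were lost (adjusted p = 0.0936 for Igf1 and 0.0697 for Pdgfa), at log2 folds of -1.28 and -1.01. The direction was the same in all of these fits.

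Within the PE150 tag the directions held as well. The Igf1 log2 difference of CD229+CD11c+ from CD229-CD11c- was -0.95 among tagged libraries and -1.63 between the untagged pair. For CD229+CD11c- it was -0.71 and -1.55. The intronic Pdgfa region gave -1.02 and -1.03 for CD229+CD11c+ from CD229-CD11c-. Each untagged value rests on 1 library per group and has no replicate check.

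Counted over the 9 regions, CD229+CD11c- against CD229-CD11c- had 1 fall (Igf1) and 1 rise (a Pdgfa region), where 1.6% of all regions were called lower and 6.75% higher. CD229+CD11c+ against CD229-CD11c- had 2 falls (Igf1 and the intronic Pdgfa region) and no rise, where 0.152% of all regions were called lower and 0.395% higher. CD229+CD11c+ against CD229+CD11c- had no call among the 9 (edgeR without block or covariate), where 0.771% were called lower and 0.0532% higher. The intronic region and the region 45.48 kb upstream were the 2 with an unadjusted p under 0.05. The genes were chosen on levels in CD229+ libraries that these comparisons share, so the counts of this paragraph carry no support.

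These backgrounds moved with the settings. For CD229+CD11c- against CD229-CD11c-, total-count scaling called 1697 regions lower and 1059 higher in place of 422 and 1777, and loess offsets on the mean level 539 and 1083. For CD229+CD11c+ against CD229-CD11c- the same settings called 50 lower and 60 higher, and 41 and 50, in place of 40 and 104, and loess offsets on basal enrichment 42 and 61. Same-numbered libraries deviated together in these 2 comparisons, and with the replicate number as a block 5.47% of all regions were called lower and 11.98% higher for CD229+CD11c-, and 1.79% and 5.90% for CD229+CD11c+. The block left the Igf1 and intronic Pdgfa calls in these 2 comparisons standing, at log2 folds of -1.06 (adjusted p = 9.89e-05) and -1.26 (adjusted p = 1.59e-05) for Igf1 and -1.01 (adjusted p = 3.58e-05, all edgeR) for Pdgfa. In the authors' deposited table the log2 fold of CD229+CD11c+ over CD229-CD11c- was -1.28 for Igf1 and -1.01 for the intronic Pdgfa region, with an adjusted p of 1.0 listed for both; the cause of that value was not tested.

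**Figure D2:**
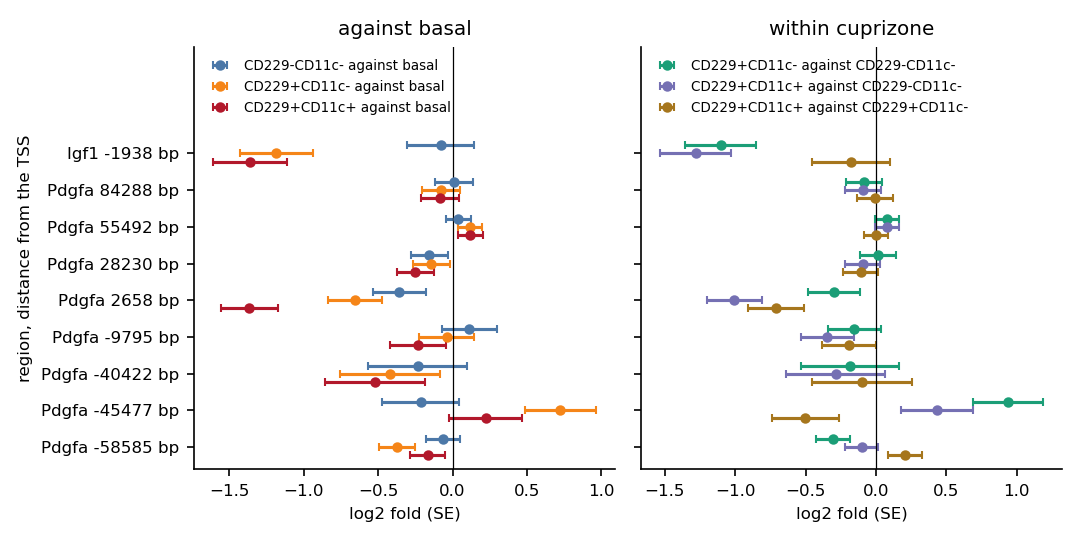
Log2 fold (horizontal axis, with its SE) of each of the 9 regions (vertical axis, named by gene and distance of the centre from the TSS in bp), for the 3 comparisons with basal and the 3 comparisons within cuprizone. In CD229+CD11c+ against CD229-CD11c- the Igf1 region, at -1.28, and the intronic Pdgfa region, at -1.01, lie farthest to the left, and in CD229+CD11c- against CD229-CD11c- the region at -45477 bp, at 0.94, is the farthest right.

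Of the 8 Pdgfa regions, 1 passed the test in CD229+CD11c+ against CD229-CD11c-, the intronic one, which fell. The log2 folds of 6 of the 8 were negative, among them -0.35 at the region 9.795 kb upstream and -0.29 at the one 40.42 kb upstream, and a difference between regions was tested only as the ratio to the longest region given below. Over the 8 regions, the log2 fold of CD229+CD11c+ against CD229-CD11c- ran from -1.01 at the intronic region to 0.44, with a median of -0.10, and the median over all regions tested was -0.01. The longest region, which held more tags than the other 7 together, had 134.7 to 173.5 CPM in all 12 libraries and log2 folds between 0.00 and 0.12 in all 6 comparisons. From basal to CD229+CD11c+, the summed level of the 8 regions was 279 ± 10.7, 276 ± 19.6, 275 ± 14.4 and 269 ± 8.83 CPM (SD, n = 3).

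The intronic region's share of that sum was 5.31%, 4.20%, 3.46% and 2.11% in the same order. The log2 ratio of the intronic to the longest region does not depend on library scaling. Over the cuprizone groups, from CD229-CD11c- to CD229+CD11c+, it was -3.74 ± 0.18, -4.13 ± 0.38 and -4.88 ± 0.35 (SD, n = 3). The difference of CD229+CD11c+ from CD229-CD11c- was -1.14 and from CD229+CD11c- -0.75, each with an exact two-sided permutation p of 0.1, the smallest that 3 against 3 libraries allow (0.15 after Benjamini-Hochberg adjustment over 3 comparisons). For CD229+CD11c- against CD229-CD11c- the difference was -0.39 (exact permutation p = 0.3). With so few libraries the permutation test could not reach 0.05, and Pdgfa was chosen on levels in the same CD229+CD11c+ libraries. No conclusion is drawn from this test.

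**Figure D3:**
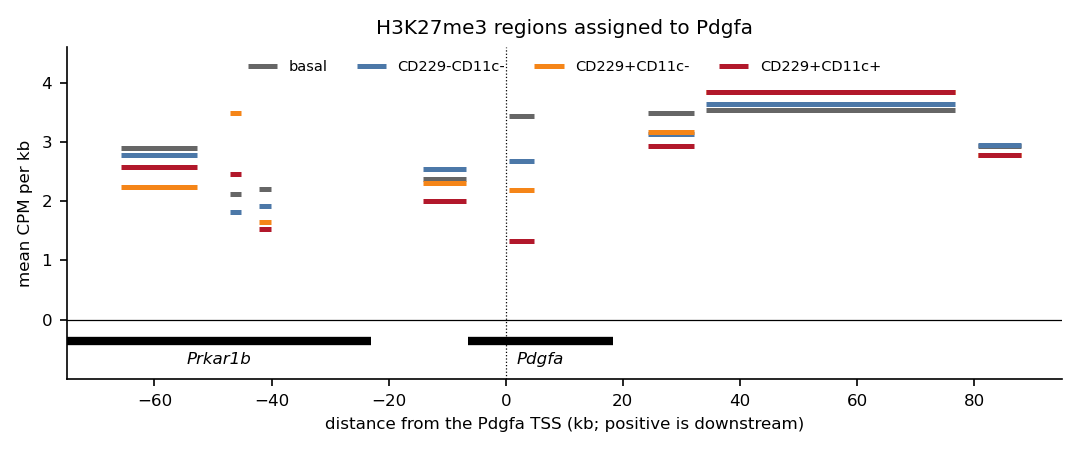
Mean H3K27me3 density (vertical axis, CPM per kb) of the 8 Pdgfa regions in each group against distance from the TSS of NR_156469 (horizontal axis, kb), with the extents of Pdgfa and of part of Prkar1b as black bars. Group means separate most at the intronic region, at 3.43, 2.67, 2.18 and 1.32 CPM per kb from basal to CD229+CD11c+, while the long downstream region stays between 3.54 and 3.85.

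Of the other 7 Pdgfa regions, the satellite region 45.48 kb upstream was the 1 that passed a test within cuprizone under TMM scaling with no block or covariate, and in the opposite direction. It rose in CD229+CD11c- against CD229-CD11c- by 0.94 ± 0.25 on the log2 scale (adjusted p = 0.0193, edgeR). Its levels were low: the CD229-CD11c- libraries had 2.61, 3.28 and 4.35 CPM and the CD229+CD11c- libraries 7.14, 4.91 and 7.63 CPM, from 25 to 74 tags. The 2 groups did not overlap. The call was lost on leaving out any of 4 of the 6 libraries (CD229-CD11c- replicate 1 or 2, CD229+CD11c- replicate 1 or 3; adjusted p from 0.0652 to 0.0946) and with only the 2 groups in the model (adjusted p = 0.0581). In CD229+CD11c+ microglia it had 5.17, 3.95 and 4.78 CPM and a log2 fold of 0.44 ± 0.26 against CD229-CD11c- (adjusted p = 0.566, edgeR).

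The region 58.59 kb upstream had 33.5, 24.8 and 29.1 CPM in CD229+CD11c- microglia against 37.8, 34.9 and 35.6 in CD229-CD11c-. The groups did not overlap, but its log2 fold of -0.31 ± 0.12 did not pass (adjusted p = 0.129, edgeR); it passed under total-count scaling (adjusted p = 0.0292), with the PE150 tag as a covariate (adjusted p = 0.0280) and with the replicate block (adjusted p = 0.0200). The region 9.795 kb upstream had 14.8, 15.7 and 26.3 CPM in the CD229-CD11c- libraries. Those of CD229+CD11c+ microglia had 13.3, 13.3 and 18.1 CPM. Here too CD229-CD11c- replicate 3 was the highest of its group, and the groups overlapped. The log2 fold of this region in CD229+CD11c+ against CD229-CD11c-, -0.35 ± 0.19, did not pass (adjusted p = 0.522, edgeR). The regions 28.23, 84.29 and 40.42 kb from the TSS lay at 21.6 to 31.4, 17.9 to 24.1 and 1.58 to 5.24 CPM over the 12 libraries. At the first of these all CD229+CD11c+ libraries (22.5 to 23.5 CPM) lay below all basal libraries (24.9 to 31.4 CPM), while its other groups overlapped, as did all groups at the last 2.

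Around Igf1, 4 other marked regions reached into the 500 kb on either side of the Igf1 start. The nearest downstream, 193.5 kb away and assigned to Pmch, had a log2 fold of 0.43 ± 0.11 in CD229+CD11c+ against CD229-CD11c- (adjusted p = 0.0945), and it rose in CD229+CD11c- against CD229-CD11c- by 0.52 ± 0.11 (adjusted p = 0.00417, both edgeR). None of the 4 passed in CD229+CD11c+ against CD229-CD11c- by edgeR without a block, where 0.395% of all regions were called higher, and their folds ran from -0.01 to 0.43. The Pmch region passed there with the replicate block (0.43, adjusted p = 0.000245), with the PE150 covariate (adjusted p = 0.000684), among tagged libraries (adjusted p = 0.00973), by DESeq2 (adjusted p = 0.0417) and without CD229-CD11c- replicate 3 (adjusted p = 0.0426).

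Around Pdgfa, 15 regions of other genes lay within 500 kb. In CD229+CD11c+ against CD229-CD11c- none rose and 1 fell, an intergenic region at chr5:138749573-138757032, 237.2 kb downstream and centred at -1779 bp from the start of Fam20c, which encodes a kinase of secreted proteins. Its level was 18.5 ± 0.566 CPM in CD229-CD11c- and 8.27 ± 2.31 CPM in CD229+CD11c+ microglia (SD, n = 3), a log2 fold of -1.15 ± 0.16 (adjusted p = 0.00107, edgeR). For CD229+CD11c- microglia the log2 fold was -0.75 ± 0.16 (adjusted p = 0.00289, edgeR). Between it and the intronic Pdgfa region, none of the intervening regions passed the test in CD229+CD11c+ against CD229-CD11c-. The regions next to the outermost Pdgfa regions had log2 folds of -0.05 ± 0.11 (Gm5294 side, adjusted p = 0.916) and 0.07 ± 0.07 (Prkar1b, adjusted p = 0.781, both edgeR). The Prkar1b region passed in CD229+CD11c- against CD229-CD11c- with the replicate block (0.13, adjusted p = 0.0445).

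**Figure D4:**
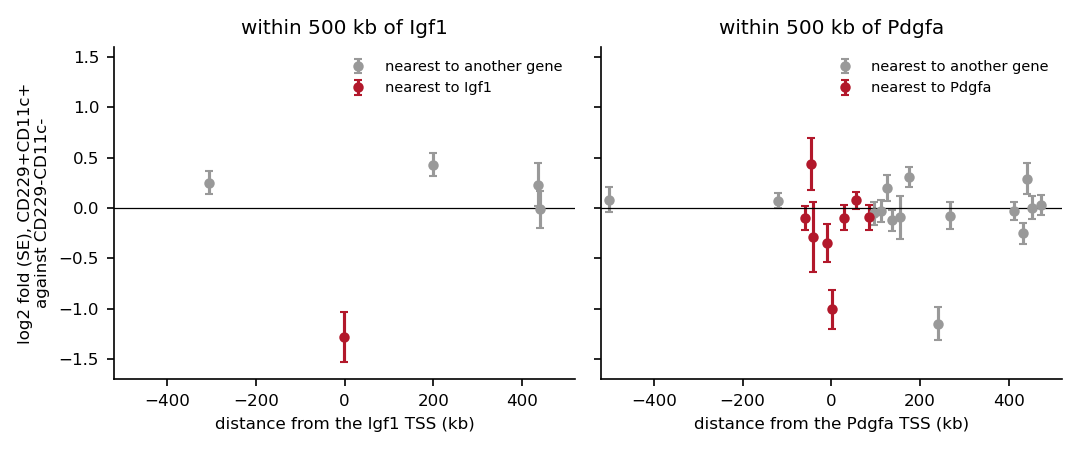
Log2 fold of CD229+CD11c+ against CD229-CD11c- microglia (vertical axis, with SE) of every marked region within 500 kb of the Igf1 and Pdgfa starts against distance from the start (horizontal axis, kb; positive is downstream). The Igf1 region at -1.28 and the intronic Pdgfa region at -1.01 are the lowest points near their starts, and a region near Fam20c at -1.15 is the other low point.

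Regions whose levels over the 12 libraries were most like the 2 regions are named as a description, since the libraries share the same 4 groups. Nearest to Igf1 by Pearson r of log2 CPM (n = 12 libraries) were regions assigned to Rab11a (r = 0.978), Azin2 (0.975), Maff (0.964), Fam166b (0.957) and Smim20 (0.946). The Maff region, in intron 1 of a small Maf transcription factor gene, went from 11.4 CPM in basal to 3.56 CPM in CD229+CD11c+ microglia on average. A high r does not mean a change of like size. Between the same groups the Rab11a region went from 70.3 to 56.1 CPM and the Azin2 region from 39.3 to 32.35 CPM. The Fam166b region went from 20.6 to 12.6 CPM and the Smim20 region from 9.98 to 5.03 CPM. Nearest to the intronic Pdgfa region were Il1r2 (r = 0.938), Tmem150c (0.935), Tgm7 (0.928), Lgals3 (0.924) and Acod1 (0.918). Il1r2 is the decoy receptor of interleukin 1, Lgals3 encodes galectin 3, a marker of phagocytic microglia, and Acod1 makes itaconate in activated macrophages. The Il1r2 region was intergenic, 49.02 kb from the Il1r2 start. Tmem150c and Tgm7 are not described here, and no shared theme is drawn from these genes. The Lgals3 region went from 20.1 to 2.89 CPM and the Acod1 region from 8.56 to 4.67 CPM between basal and CD229+CD11c+ microglia. The Il1r2 region went from 15.6 to 10.8 CPM, Tmem150c from 40.2 to 32.6 CPM and Tgm7 from 43.8 to 37.5 CPM. The Igf1 and intronic Pdgfa regions correlated with each other at r = 0.774, and 2.902% of regions had a higher r with Igf1. By Spearman rank correlation 1 of the 5 genes named for each was again among the 5 highest, Rab11a for Igf1 and Lgals3 for Pdgfa. Il1r2 and Acod1 were not among them, nor were Tmem150c and Tgm7.

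Other genes of the 2 pathways were counted against the same backgrounds. Of 31 other genes of the insulin-like growth factor (IGF) axis, 23 had 56 regions. In CD229+CD11c- against CD229-CD11c-, 9 of the 56 rose (16.1%, beside 6.75% of all regions) and none fell (beside 1.6%), with a median log2 fold of 0.13 beside -0.03 over all regions. Loess offsets on the mean level or on basal enrichment each called 4 higher (7.14%, beside 4.11% and 4.08% of all regions). Total-count scaling called 5 higher (8.93%, beside 4.02%). In CD229+CD11c+ against CD229-CD11c- none was called by edgeR without a block, near the backgrounds of 0.395% higher and 0.152% lower, with a median of 0.12 beside -0.01. With the replicate block 17 rose for CD229+CD11c- (30.4%, beside 11.98%) and 12 for CD229+CD11c+ (21.4%, beside 5.90%), with no fall in either. With the PE150 covariate 17 (30.4%, beside 11.51%) and 9 (16.1%, beside 4.63%) rose in the same comparisons. Htra1, a protease that cleaves IGF-binding proteins, rose in CD229+CD11c- by 0.54 ± 0.08 (adjusted p = 0.000116) and had 0.31 ± 0.08 for CD229+CD11c+ (adjusted p = 0.0876, both edgeR). Igf2r, the receptor that clears Igf2, rose by 0.60 ± 0.11 in CD229+CD11c- (adjusted p = 0.000989) and had 0.33 ± 0.11 in CD229+CD11c+ (adjusted p = 0.225, both edgeR), at a region in an intron of the transcript NR_027784. That region was centred at -31570 bp from the Igf2r start. Igf2bp1, which encodes an RNA-binding protein of Igf2 mRNA, rose by 0.46 ± 0.09 in CD229+CD11c- (adjusted p = 0.00110, edgeR), a call lost with loess offsets on the mean level (adjusted p = 0.178). Igfbp7, a secreted IGF-binding protein, had 0.34 ± 0.10 in CD229+CD11c+ (adjusted p = 0.157, edgeR). All 4 regions passed in CD229+CD11c+ against CD229-CD11c- with the replicate block (adjusted p = 6.48e-05 for Htra1, 0.0251 for Igf2r, 0.00166 for Igf2bp1 and 0.00183 for Igfbp7) and with the PE150 covariate (adjusted p from 0.000916 to 0.0349), and Htra1 also by DESeq2 (adjusted p = 0.0364). Igfbp7 passed in CD229+CD11c- as well with the block (0.29, adjusted p = 0.00646).

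Of 17 other genes of the PDGF and VEGF axis, 10 had 32 regions. In CD229+CD11c- against CD229-CD11c-, 4 rose (12.5%, beside 6.75% of all regions) and 2 fell (6.25%, beside 1.6%), with a median log2 fold of -0.10. In CD229+CD11c+ against CD229-CD11c-, 1 rose and 1 fell (3.12% each, beside 0.395% and 0.152%), with a median of -0.03. Counts this small say little about the list. With the replicate block 5 rose (15.6%, beside 11.98% of all regions) and 2 fell (6.25%, beside 5.47%) for CD229+CD11c-. For CD229+CD11c+ 3 rose (9.38%, beside 5.90%) and 2 fell (6.25%, beside 1.79%). Pdgfra, the receptor of PDGF-AA and a marker of oligodendrocyte progenitors, rose in CD229+CD11c- by 0.51 ± 0.08 (adjusted p = 0.000340, edgeR), at a region of its intron 1. Its level was 160 ± 9.36 CPM in CD229-CD11c- microglia and 228 ± 19.7 CPM where CD229 alone was present (SD, n = 3). In CD229+CD11c+ its log2 fold was 0.20 ± 0.08 (adjusted p = 0.376, edgeR), which passed with the replicate block (adjusted p = 0.00436). The region of Vegfa, the endothelial growth factor, 67.61 kb from its start rose by 0.47 ± 0.08 in CD229+CD11c- (adjusted p = 0.000620) and by 0.38 ± 0.08 in CD229+CD11c+ (adjusted p = 0.0362, both edgeR), and both calls were lost with loess offsets on the mean level (adjusted p = 0.249 and 0.197). The second was also lost without CD229-CD11c- replicate 2 (adjusted p = 0.0714) or CD229+CD11c+ replicate 1 (adjusted p = 0.247) or 2 (adjusted p = 0.180). A second Vegfa region, 27.05 kb away, rose by 0.40 ± 0.07 in CD229+CD11c- (adjusted p = 0.00113, edgeR), a call lost in the same way (adjusted p = 0.229), and had 0.22 ± 0.07 in CD229+CD11c+ (adjusted p = 0.229, edgeR), which passed with the block (adjusted p = 6.75e-05). The member that fell in CD229+CD11c+ was a region centred at -24131 bp from the start of Flt1, which encodes a VEGF receptor. Its log2 fold was -0.83 ± 0.16 (adjusted p = 0.0115, edgeR). That call was lost without CD229+CD11c+ replicate 1 (adjusted p = 0.0892) or 2 (adjusted p = 0.106).

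Of 48 other factors that act on oligodendrocyte progenitors, 39 had 145 regions. In CD229+CD11c- against CD229-CD11c-, 13 rose (8.97%, beside 6.75% of all regions) and 2 fell (1.38%, beside 1.6%), with a median log2 fold of -0.06. In CD229+CD11c+ 1 rose and 1 fell (0.69% each, beside 0.395% and 0.152%), with a median of 0.01. These shares, from the fit without a block, lie near the background and are not a result about the list. With the replicate block 22 rose (15.2%, beside 11.98% of all regions) and 7 fell (4.83%, beside 5.47%) for CD229+CD11c-. For CD229+CD11c+ 16 rose (11.0%, beside 5.90%) and 3 fell (2.07%, beside 1.79%). A difference of the list from the background was not tested. Gdnf, a neurotrophic factor, rose by 0.75 ± 0.10 (adjusted p = 4.6e-05) and 0.50 ± 0.10 (adjusted p = 0.0184, both edgeR) in the same comparisons. The second call was lost without CD229-CD11c- replicate 2 (adjusted p = 0.0592) or CD229+CD11c+ replicate 1 (adjusted p = 0.162) or 2 (adjusted p = 0.124). Wnt7b, a Wnt ligand, rose by 0.40 ± 0.07 (adjusted p = 0.000395) and Sema3f, a guidance cue for progenitors, by 0.74 ± 0.10 (adjusted p = 5.9e-05, both edgeR) in CD229+CD11c-. The Wnt7b region was centred at -39493 bp from the Wnt7b start. The Sema3f region passed in CD229+CD11c+ too with the replicate block (0.37, adjusted p = 0.000943). Edn2, an endothelin, fell in CD229+CD11c+, with a log2 fold of -0.84 ± 0.19 (adjusted p = 0.0481, edgeR), a call that held without CD229-CD11c- replicate 3 but was lost without any 1 of the other 5 libraries (adjusted p from 0.0954 to 0.189). The Edn2 region was centred at -19513 bp from the Edn2 start. At Fgf2, a mitogen of progenitors, a region over the promoter had a log2 fold of -1.38 ± 0.34 in CD229+CD11c+ (adjusted p = 0.0697, edgeR) at 5.22 ± 2.23 CPM in CD229-CD11c- against 1.99 ± 0.583 CPM (SD, n = 3). It passed with the replicate block (adjusted p = 0.000508), with the PE150 covariate (adjusted p = 0.000682), among tagged libraries (adjusted p = 0.0318) and without CD229-CD11c- replicate 1 (adjusted p = 0.0215). With only the groups compared in the model, the CD229+CD11c+ calls of Vegfa, Flt1, Gdnf and Edn2 were lost as well (adjusted p from 0.0697 to 0.102).

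**Figure D5:**
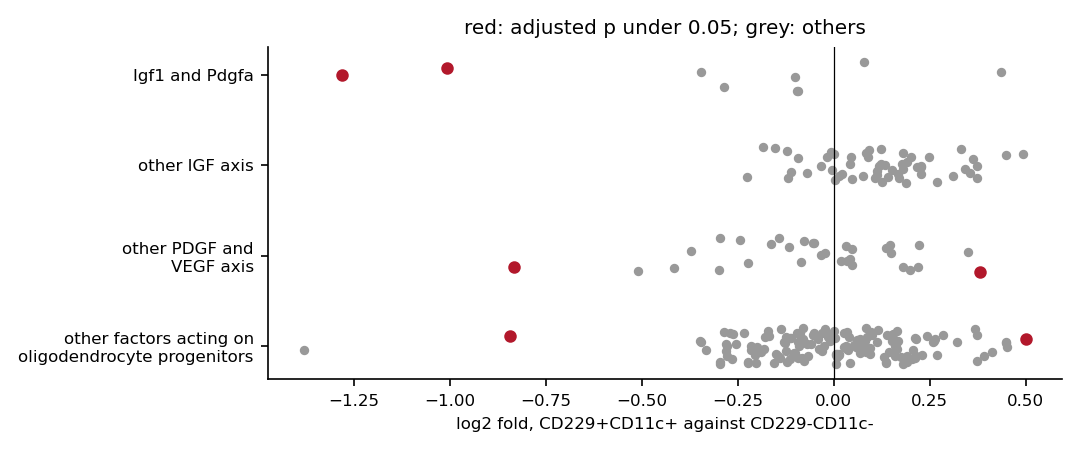
Log2 fold of CD229+CD11c+ against CD229-CD11c- microglia (horizontal axis) for the 9 Igf1 and Pdgfa regions and for the regions of the 3 lists of other genes (vertical position within a row is random); red points passed an adjusted p of 0.05. The Igf1 and intronic Pdgfa regions are the red points at -1.28 and -1.01.

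Marker loci of other cell types were mostly at a higher level in the CD229+ groups. Summed over 13 regions of 6 of 10 genes of the oligodendrocyte lineage, the level from basal to CD229+CD11c+ was 855.3 to 933, 893.4 to 957.3, 1148 to 1197 and 1002 to 1020 CPM. For 6 of 6 astrocyte genes it was 528.3 to 538.5, 527.9 to 597, 631.8 to 672.5 and 598.6 to 637.3 CPM in the same order. For 5 of 6 lymphocyte genes it was 1243 to 1271, 1264 to 1333, 1466 to 1533 and 1419 to 1426 CPM. The 5 of 6 neuronal genes overlapped in all groups (1615 to 2188 CPM), and the 3 Sall1 regions summed to 32.9 to 43.2, 31.9 to 40.8, 26.6 to 33.0 and 28.3 to 31.4 CPM. No list was at 0 in any library. Their part in the Igf1 and Pdgfa results was not tested.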

How the data were processed

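Per the file headers, the authors called regions on basal H3K27me3 replicates 1 and 2 against input with HOMER in mm10. STAR 2.7.0f, DESeq2, HOMER, Bowtie2 2.3.4.1 and fastp 0.20.0 are named in the submitters' processing notes, which do not give their roles. The authors deposited raw tag counts per region, log2 enrichments and log2 folds, p-value columns, a peak score, a normalized signal and the region size (the other unit); the score and signal were not used for any result.

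Counts of 12 libraries were fitted in 1 model with edgeR 4.0.16 (R 4.3.3; TMM, robust quasi-likelihood). The low-count filter removed 0 regions. The 6 comparisons were adjusted by Benjamini-Hochberg over 26326 regions and called at 0.05. CPM use a prior count of 2 on the log2 scale. The method was tested on simulated data with independent libraries and a fixed dispersion. That test does not cover libraries that deviate together or the spread of single regions. Members, lists and comparisons were chosen with earlier results of these data known. Named genes are all 9 regions; the nearest neighbours and any neighbour called in CD229+CD11c+ against CD229-CD11c-; the 5 likest genes; and the 3 smallest p per list and comparison (CD229+CD11c- and CD229+CD11c+ against CD229-CD11c-). Alternatives were RLE and total-count scaling, loess offsets on mean level, DESeq2 1.42.0, filters, the PE150 tag, subsets of libraries and a replicate block; loess offsets on basal enrichment and a fit of the cuprizone libraries alone were added after seeing the data. The replicate numbers are the labels', which do not say that they mark a shared source. Deviations of same-numbered libraries from their group means correlated with r of 0.128 to 0.457 in both comparisons with CD229-CD11c-. Between the 2 CD229+ groups r was 0.083 to 0.331. The main fit paired no libraries in any comparison, so its p-values ignore this correlation, and the replicate block is the fit that takes it up. In the cuprizone groups replicate 3 is also the library without the PE150 tag. Input libraries were not analysed here. The result of 1 neighbouring region is not reported here.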

Additional observations from a re-analysis of the deposited data

How the results depend on the processing

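The number of tags (28 to 182 at the Igf1 and intronic Pdgfa regions) and 3 libraries per group limit what can be seen. Across the other settings the Igf1 log2 fold against CD229-CD11c- ran from -1.22 to -0.73 for CD229+CD11c- and from -1.33 to -0.97 for CD229+CD11c+, and that of the intronic Pdgfa region for CD229+CD11c+ from -1.13 to -0.97. DESeq2 gave no adjusted p for Igf1 in CD229+CD11c+ against CD229-CD11c-. With only the groups compared, which leaves fewer libraries, 1 in place of 2 of the 9 regions was called in CD229+CD11c- against CD229-CD11c-. In CD229+CD11c+ against CD229-CD11c- it was 0 in place of 2 (Igf1 -1.28, adjusted p = 0.0936; intronic Pdgfa -1.01, adjusted p = 0.0697). The PE150 covariate gave 1 in place of 0 in CD229+CD11c+ against CD229+CD11c- (intronic Pdgfa -0.71). Loess offsets on basal enrichment, chosen after seeing the data, gave 2 in place of 4 in CD229+CD11c- against basal, with -0.92 for the intronic Pdgfa region; the cause was not tested.

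Leaving out 1 library at a time, the Igf1 log2 fold ran from -0.48 to 0.084 in CD229-CD11c- against basal, from -1.27 to -0.70 in CD229+CD11c- and from -1.45 to -0.88 in CD229+CD11c+ against CD229-CD11c-. The intronic Pdgfa region ran from -1.23 to -0.83 in the last of these. The regions called ranged from 1 to 2 of the 9 in CD229+CD11c- against basal, from 1 to 2 in CD229+CD11c- and from 0 to 2 in CD229+CD11c+ against CD229-CD11c-. For the uncalled neighbours the sign turned: the Gm5294 region ran from -0.094 to 0.165 for CD229+CD11c- and from -0.174 to 0.084 for CD229+CD11c+, and the Prkar1b region from -0.014 to 0.136 for CD229+CD11c+. Prkar1b gave -0.093 and -0.029 with loess offsets on mean level and -0.0045 among tagged libraries (the last 2 for CD229+CD11c+). Gm5294 gave -0.082 under total-count scaling and -0.10 among tagged libraries for CD229+CD11c-. Total-count scaling moved the median of all regions to -0.14 in CD229+CD11c- against CD229-CD11c- and to -0.16 against basal, with 1059 higher and 1697 lower in the former in place of 1777 and 422. Over all regions, calls in CD229+CD11c+ against CD229-CD11c- ran from 44 (without CD229+CD11c+ replicate 1) to 2025 (replicate block) beside 144, and in CD229+CD11c+ against CD229+CD11c- from 9 (without CD229+CD11c+ replicate 2) to 2199 (replicate block) beside 217.

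The main fit took the replicate numbers as pairs in no comparison, although 7 of 9 cuprizone libraries correlated best with their own number. With the replicate block, calls over all regions were 4595, 2025 and 2199 in place of 2199, 144 and 217 in CD229+CD11c- and CD229+CD11c+ against CD229-CD11c- and CD229+CD11c+ against CD229+CD11c-. In the last of these the intronic Pdgfa region, at -0.71, was the 1 call among the 9 under the block (adjusted p = 0.00845, edgeR). Among the regions named, the block changed no call beyond this one and those given with the results above. No paired analysis was possible against basal because those groups share only the number 3.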
